A study of Mus musculus with 12 samples.

Results

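The 41 genes described here are Myc and genes of ribosome biogenesis and growth, measured in natural killer (NK) cells of mouse lymph nodes. They were chosen by name, with earlier results of these data known: MYC itself, nucleolar proteins that build ribosomes, and metabolic and translation genes known as MYC targets. All 41 were found by symbol among the 56748 gene IDs of each library. RNA of sorted NK cells was sequenced in 12 libraries, 4 per group. The hematogenous group came from tumor-bearing nodes of mice in which diffuse large B cell lymphoma had spread through blood vessels, the lymphatic group from tumor-bearing nodes of mice in which it had spread through lymphatic vessels, and the tumor-free group from nodes of C57BL/6J mice without tumor. The labels used here give no lymphoma line, transgene, age, sex or time, and no strain for the tumor-bearing mice. They do not say whether the libraries of a group came from separate mice, so each p-value rests on a spread that could be technical.

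MYC is a transcription factor that pairs with MAX and binds the E-box CACGTG in promoters of genes for growth. Ribosomes are assembled in the nucleolus: RNA polymerase I makes the precursor of ribosomal RNA, small nucleolar ribonucleoproteins (snoRNPs) modify it, and assembly factors process it and fold it with ribosomal proteins into the small and the large subunit. In NK cells and other lymphocytes this program is known to rise when resting cells are stimulated by cytokines and begin to grow.

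Gene counts per library ran from 10087837 to 19625766 in the hematogenous, from 17672832 to 43494812 in the lymphatic and from 6654215 to 23674960 in the tumor-free group. The lowest count of any of the 41 genes was 71 reads, for Mrto4 in tumor-free replicate 2, and all 41 were among the 16016 genes that passed the filter on low counts and were tested. Levels are given as TMM-scaled CPM, library by library in the order of their replicate numbers. Differences are log2 fold changes ± SE, and a gene was called changed at an edgeR adjusted p under 0.05 over all tested genes. Hematogenous replicate 1 had the smallest share of reads assigned to genes, 55.4%, against 62.8% to 65.5% in the other hematogenous, 67.1% to 72.1% in the lymphatic and 65.7% to 70.7% in the tumor-free libraries. At equal depth the hematogenous libraries had reads on 16845 to 21047 genes, the lymphatic on 18389 to 21863, tumor-free replicate 3 on 20891 and tumor-free replicates 1, 2 and 4 on 14168 to 14740. These 3 lay below all 9 other libraries, and the part of this in comparisons with tumor-free nodes was not tested.

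In NK cells from hematogenous nodes, against NK cells from lymphatic nodes, 16 of the 41 genes fell (39.0%), 25 were not called and none rose, where 5.92% of all tested genes were called lower and 2.93% higher. The genes that fell included Ran, the nucleotide synthesis genes Ppat and Nme1, the translation factors Eif4e and Eif5a, and Npm1. The count was 10 with DESeq2 size factors, 10 with upper quartile scaling, 9 with library size alone and 4 with tumor-free replicate 3 and hematogenous replicate 1 both left out. All 41 log2 fold changes were below 0, although 2 of them, both of genes not called, were above 0 with each of 3 other scalings. They ran from −1.32 to −0.03 with a median of −0.59, while 50.5% of all tested genes were below 0 and the median of all was −0.01. In 14 genes every hematogenous library lay below every lymphatic library, as in 11.3% of tested genes. At an unadjusted p under 0.05 there were 32 of the 41 genes, all lower, against 21.7% of tested genes. Lymphatic replicate 2 carried part of this difference: without it 37 of the 41 genes were below 0 and the median was −0.38. In that fit 6 of the 41 genes were called, all lower, where 430 of 16621 tested genes were called lower and 190 higher. The median was −0.34 in a fit by limma's voom with quality weights, which called 12 of the 41.

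**Figure D1:**
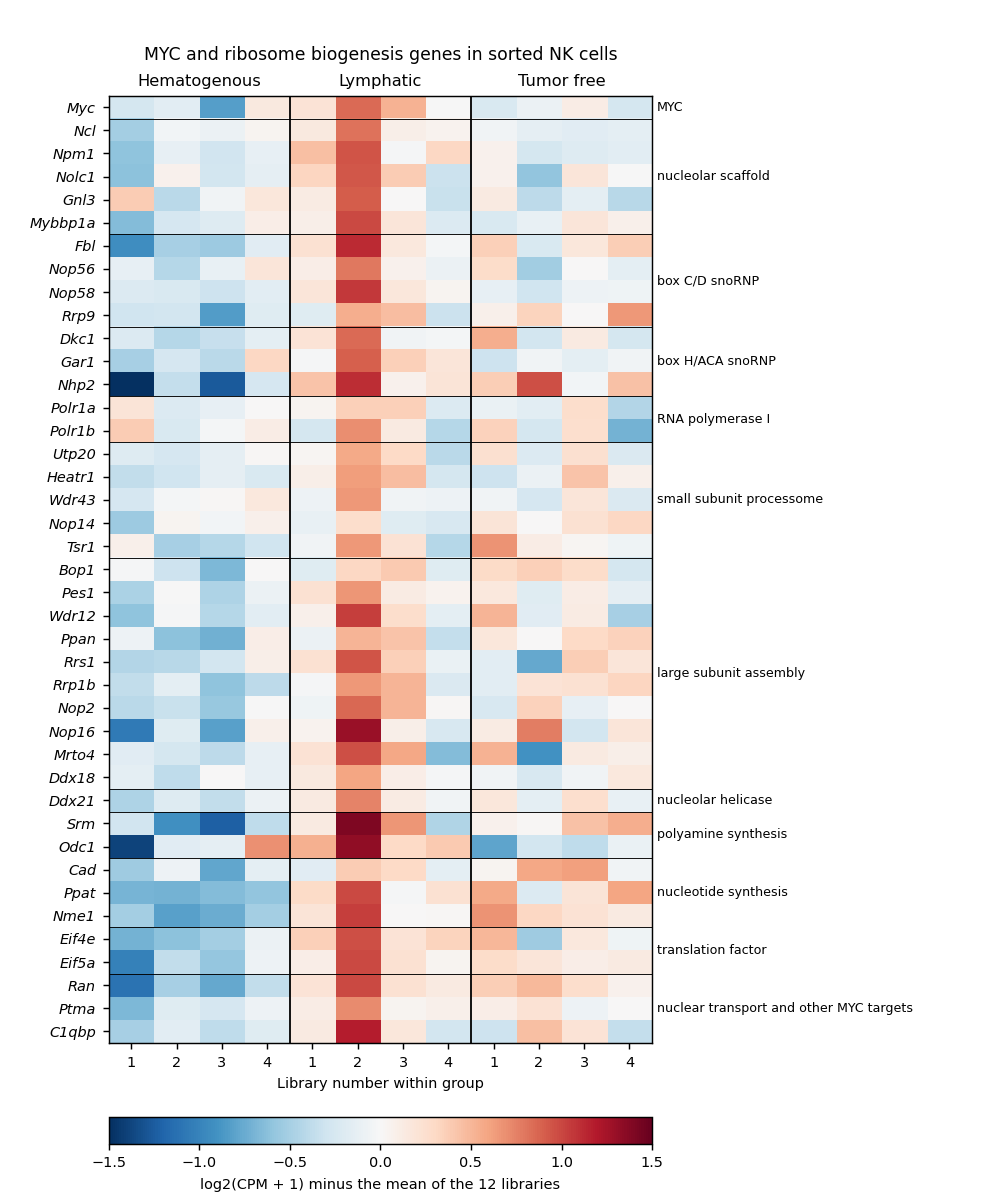
Level of each of the 41 genes (down the page, by role) in each library (across, by group and replicate number) as log2(CPM + 1) minus the mean of the 12 libraries, with red above and blue below that mean. Lymphatic replicate 2 is the reddest column, highest of the 12 libraries for 36 genes, and hematogenous replicate 1 is lowest for 20 genes.

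Ran, a small GTPase that drives transport between nucleus and cytoplasm, stood at 57.3, 87.8, 72.4 and 96.4 CPM in the hematogenous libraries, against 143, 248, 146 and 137 CPM in the lymphatic libraries. The groups did not overlap, and the highest lymphatic value was that of replicate 2 (−1.10 ± 0.187, edgeR adjusted p = 0.0018). Ppat, which encodes the enzyme of the committed step of purine synthesis, stood at 31.1, 30.8, 31.9 and 33.4 CPM in the hematogenous libraries, against 62.3, 102, 50.2 and 59.9 CPM in the lymphatic libraries. Its hematogenous libraries lay close together, all below the lymphatic ones (−1.11 ± 0.208, edgeR adjusted p = 0.00293). Nme1, a nucleoside diphosphate kinase gene, stood at 31.4, 25.2, 26.5 and 31.4 CPM in the hematogenous libraries, against 52.0, 93.7, 45.3 and 45.7 CPM in the lymphatic libraries. Again no hematogenous library reached a lymphatic one (−1.05 ± 0.215, edgeR adjusted p = 0.00533). Ran, Ppat and Nme1 were called in each of 24 alternative fits of this comparison, 12 of which left out 1 library. Exons of Nme1 overlap those of Gm20390 on the same strand. Exons of Ppat overlap those of Paics, another purine synthesis gene, on the opposite strand, and the strand option of the counting is not known here. Paics also fell (−0.63 ± 0.156, edgeR adjusted p = 0.016).

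Both translation factors fell. Eif4e, which encodes the protein that binds the mRNA cap, stood at 29.7, 31.5, 34.1 and 46.1 CPM in the hematogenous libraries, against 62.9, 96.3, 56.7 and 61.7 CPM in the lymphatic libraries (−0.97 ± 0.217, edgeR adjusted p = 0.00854). Eif5a, whose protein carries the spermidine-derived residue hypusine and aids peptide elongation, stood at 202, 316, 274 and 387 CPM in the hematogenous libraries, against 439, 811, 477 and 419.9 CPM in the lymphatic libraries (−0.86 ± 0.193, edgeR adjusted p = 0.00879). In neither gene did the groups overlap, and in both the highest level was that of lymphatic replicate 2. Ptma, which encodes the nuclear protein prothymosin alpha, fell as well (−0.54 ± 0.154, edgeR adjusted p = 0.0333). C1qbp, the gene of a mitochondrial matrix protein, stood at −0.73 and was not called (edgeR adjusted p = 0.0893). Ptma, Npm1 and Ran are known to have processed pseudogenes, which could share reads with them.

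The promoters of 5 genes are printed because they hold the E-box CACGTG and have the smallest unadjusted p-values over all comparisons among the genes that do. In each of the 5 that p-value is the one of hematogenous against lymphatic nodes. RefSeq's promoter table for GRCm38.p6 held no window for Myc. It held windows, 250 bases before to 50 after a start site, for 35 of the 41 genes. CACGTG, which reads the same on both strands, was found in a window of 10 of these 35 genes (28.6%), against 8.09% of all genes in the table and 11.4% of the tested genes in it. It was found in 6 of the 12 called genes with a window and in 4 of the 23 others. The related letters CACGCG, searched on both strands, were found in 12 of the 35 genes (34.3%), against 10.5% of all genes and 19.2% of tested genes in the table, and a match to them cannot overlap a match to CACGTG. Such matches describe letters, not binding. Some of the 41 genes were chosen as known MYC targets, so their share with CACGTG is not independent of that choice. The difference between called and other genes rests on few genes and was not tested. The windows, read 5′ to 3′ on the strand of the gene with CACGTG in capitals, are chr5:129019906-129020205 (plus strand) for Ran, chr11:93968223-93968522 (minus strand) for Nme1, chr3:138527018-138527317 (plus strand) for Eif4e, chr11:69921337-69921636 (minus strand) for Eif5a and chr6:125131633-125131932 (plus strand) for Nop2.
Ran: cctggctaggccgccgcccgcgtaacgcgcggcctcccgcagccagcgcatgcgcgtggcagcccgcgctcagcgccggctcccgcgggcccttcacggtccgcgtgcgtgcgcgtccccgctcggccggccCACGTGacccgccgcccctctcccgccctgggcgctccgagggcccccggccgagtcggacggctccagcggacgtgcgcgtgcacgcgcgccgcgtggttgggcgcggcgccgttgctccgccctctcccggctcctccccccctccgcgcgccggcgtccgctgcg
Nme1: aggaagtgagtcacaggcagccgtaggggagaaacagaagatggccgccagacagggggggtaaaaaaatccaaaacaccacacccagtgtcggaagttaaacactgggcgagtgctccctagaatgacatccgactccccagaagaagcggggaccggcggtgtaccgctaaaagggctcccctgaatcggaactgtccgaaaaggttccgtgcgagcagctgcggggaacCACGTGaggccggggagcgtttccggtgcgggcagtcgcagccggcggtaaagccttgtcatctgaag
Eif4e: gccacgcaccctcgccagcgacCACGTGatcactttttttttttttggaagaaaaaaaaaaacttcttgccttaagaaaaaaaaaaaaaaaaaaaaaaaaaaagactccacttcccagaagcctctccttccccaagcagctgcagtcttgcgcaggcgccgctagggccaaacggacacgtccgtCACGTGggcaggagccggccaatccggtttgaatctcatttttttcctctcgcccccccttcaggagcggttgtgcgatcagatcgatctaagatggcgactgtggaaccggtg
Eif5a: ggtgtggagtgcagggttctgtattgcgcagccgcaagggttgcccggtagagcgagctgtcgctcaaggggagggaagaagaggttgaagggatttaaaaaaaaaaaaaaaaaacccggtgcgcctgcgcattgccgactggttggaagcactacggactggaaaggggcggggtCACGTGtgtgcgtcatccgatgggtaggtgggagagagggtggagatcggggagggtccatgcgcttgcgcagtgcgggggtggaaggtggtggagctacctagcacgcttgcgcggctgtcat
Nop2: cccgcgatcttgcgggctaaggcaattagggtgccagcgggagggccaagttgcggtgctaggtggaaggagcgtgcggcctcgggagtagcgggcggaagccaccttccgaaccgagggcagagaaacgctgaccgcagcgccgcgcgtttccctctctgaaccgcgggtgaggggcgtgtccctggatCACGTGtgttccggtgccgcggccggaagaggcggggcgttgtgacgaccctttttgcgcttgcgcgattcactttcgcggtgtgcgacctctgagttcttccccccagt
CACGTG begins 118 bases before the start site in the Ran window, 18 before it for Nme1, 228 and 64 before it for Eif4e, 74 before it for Eif5a and 60 before it for Nop2. For Nme1, Eif4e and Eif5a, which have several windows, the one with CACGTG nearest to its start site is shown.

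Among 5 nucleolar scaffold genes, Npm1, which encodes the abundant chaperone nucleophosmin, stood at 335, 468, 418 and 467 CPM in the hematogenous libraries, against 693, 975, 503 and 632 CPM in the lymphatic libraries. The groups did not overlap (−0.73 ± 0.164, edgeR adjusted p = 0.00885). The other 4 were not called. Ncl, the gene of nucleolin, averaged 736 ± 116 CPM in hematogenous and 1006 ± 283 CPM in lymphatic nodes (SD, n = 4 each) without overlap, at an edgeR adjusted p of 0.0829. Nolc1, whose protein chaperones snoRNPs, stood at −0.63, Mybbp1a, a MYB-binding protein gene, at −0.56 and Gnl3, which encodes the GTPase nucleostemin, at −0.21.

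Genes of both kinds of modifying snoRNP were called. In box C/D particles, which methylate ribosomal RNA, the methyltransferase gene Fbl stood at 38.1, 51.6, 50.2 and 65.5 CPM in the hematogenous libraries, against 86.2, 161, 82.2 and 72.0 CPM in the lymphatic libraries (−0.97 ± 0.223, edgeR adjusted p = 0.0105). The core protein gene Nop58 fell too (−0.66 ± 0.177, edgeR adjusted p = 0.0239), while its partner Nop56 stood at −0.37 and Rrp9, which encodes a protein of the U3 particle, at −0.57, neither of them called. In box H/ACA particles, which make pseudouridine, the core protein gene Nhp2 stood at 8.41, 22.3, 11.4 and 24.0 CPM in the hematogenous libraries, against 39.1, 63.4, 30.3 and 33.0 CPM in the lymphatic libraries (−1.32 ± 0.31, edgeR adjusted p = 0.0117). Hematogenous libraries 1 and 3 were lowest in Nhp2, and no hematogenous library reached a lymphatic one in Fbl or Nhp2. Exons of Nhp2 overlap those of Rmnd5b on the opposite strand, a gene with 10083 counts in all libraries together against 7953 for Nhp2. Gar1, another core protein gene, and Dkc1, which encodes the pseudouridine synthase dyskerin, stood at −0.59 and −0.58 and were not called.

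None of the chosen genes grouped here under RNA polymerase I or the small subunit processome was called. The processome is the particle that processes the small subunit's RNA. The group named for it includes Tsr1, whose protein acts later in small subunit assembly. It leaves out the box C/D genes above, of which Fbl and Nop58 were called, so it does not cover the whole processome. Polr1a and Polr1b, the core subunit genes of RNA polymerase I, stood at −0.19 ± 0.169 and −0.03 ± 0.247. Other subunit genes of this polymerase, read from a list described below, did fall: Polr1d (−0.77 ± 0.168, edgeR adjusted p = 0.00754) and Polr1c (−0.66 ± 0.161, edgeR adjusted p = 0.0149). The 5 genes of the processome group ran from −0.53 for Heatr1, with Tsr1 at −0.43, Utp20 at −0.31 and Wdr43 at −0.17, to −0.04 for Nop14. Of 10 genes of large subunit assembly 3 fell, the RNA methyltransferase gene Nop2 (−0.71 ± 0.208, edgeR adjusted p = 0.0365), Rrp1b (−0.66 ± 0.197, edgeR adjusted p = 0.0421) and Pes1 (−0.54 ± 0.158, edgeR adjusted p = 0.0383). The protein of Pes1 forms a complex with those of Bop1 and Wdr12, which stood at −0.34 and −0.69 and were not called. The assembly factor genes Nop16 at −0.90, Rrs1 at −0.68, Mrto4 at −0.66, Ppan at −0.47 and Ddx18 at −0.38 were not called either. Ddx21, a nucleolar helicase gene, fell (−0.55 ± 0.156, edgeR adjusted p = 0.0336).

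Of the polyamine enzymes, Srm, the spermidine synthase gene, stood at 16.4, 10.2, 8.12 and 15.3 CPM in the hematogenous libraries, against 22.4, 55.2, 32.6 and 14.5 CPM in the lymphatic libraries (−1.32 ± 0.332, edgeR adjusted p = 0.0169). Here the groups overlapped, since lymphatic replicate 4 lay below hematogenous replicates 1 and 4. Odc1, the ornithine decarboxylase gene, stood at −0.79 ± 0.352 and was not called, nor was Cad, which encodes the enzyme that starts pyrimidine synthesis, at −0.47 ± 0.188.

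**Figure D2:**
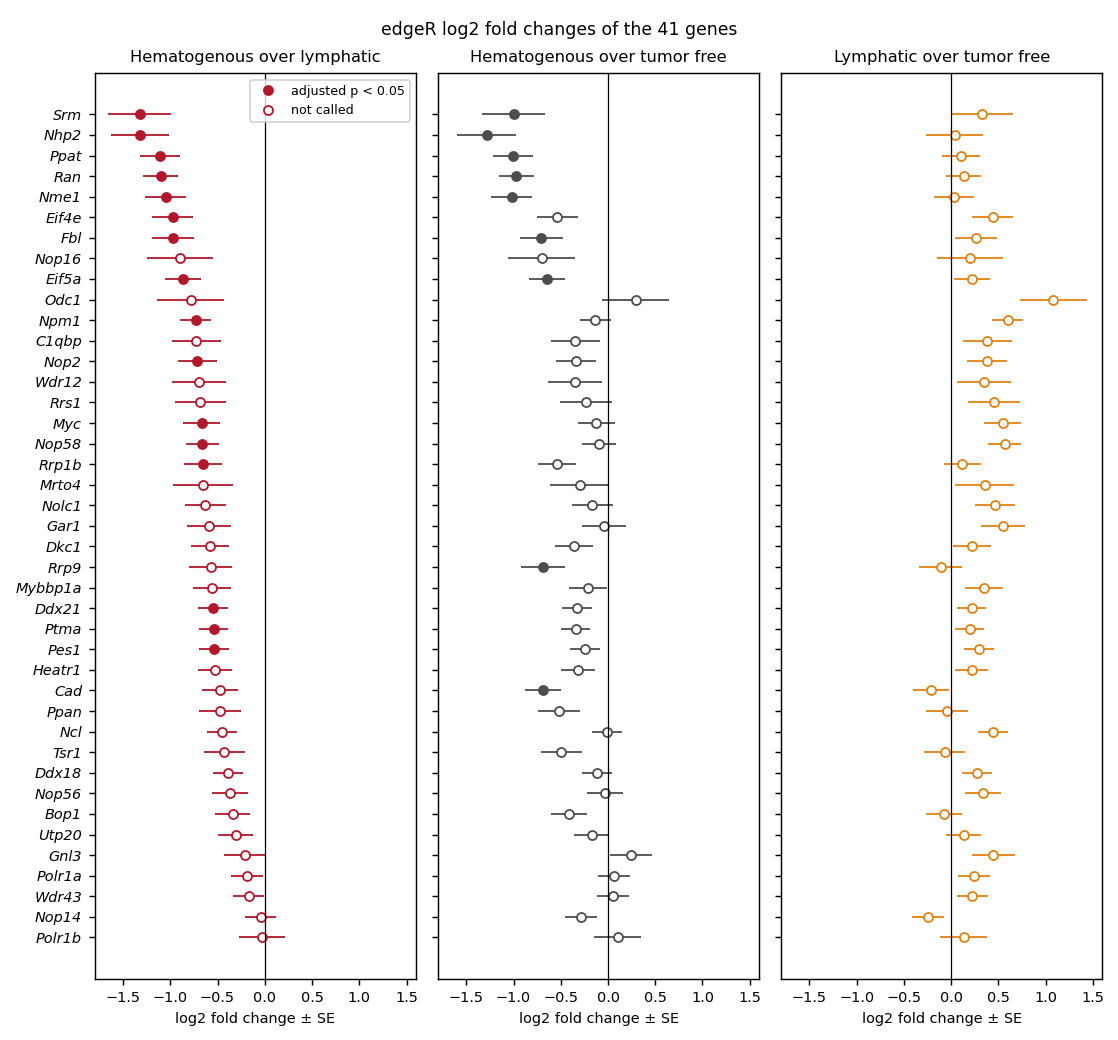
Log2 fold changes with standard errors (x axis) of the 41 genes (down the page) for hematogenous over lymphatic, hematogenous over tumor free and lymphatic over tumor free, with filled points called at adjusted p under 0.05. In the first panel all 41 points are left of 0 and 16 are filled, in the middle panel 36 are left of 0 and 9 are filled, and in the last panel 35 are right of 0 and none is filled.

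Myc itself stood at 67.2, 72.3, 45.2 and 89.3 CPM in the hematogenous libraries, against 92.8, 147, 116 and 80.3 CPM in the lymphatic libraries (−0.67 ± 0.196, edgeR adjusted p = 0.0371). It fell, with an overlap, since hematogenous replicate 4 exceeded lymphatic replicate 4. In tumor-free libraries Myc stood at 68.4, 75.6, 87.1 and 66.8 CPM, and neither the hematogenous (−0.12 ± 0.197, edgeR adjusted p = 0.736) nor the lymphatic group (0.55 ± 0.196, edgeR adjusted p = 0.177) was called against them. The call of Myc was lost without any 1 of 7 libraries (hematogenous 1, 2 and 3, lymphatic 2 and 3, tumor-free 1 and 4) and in 9 of 12 other alternative fits.

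**Figure D3:**
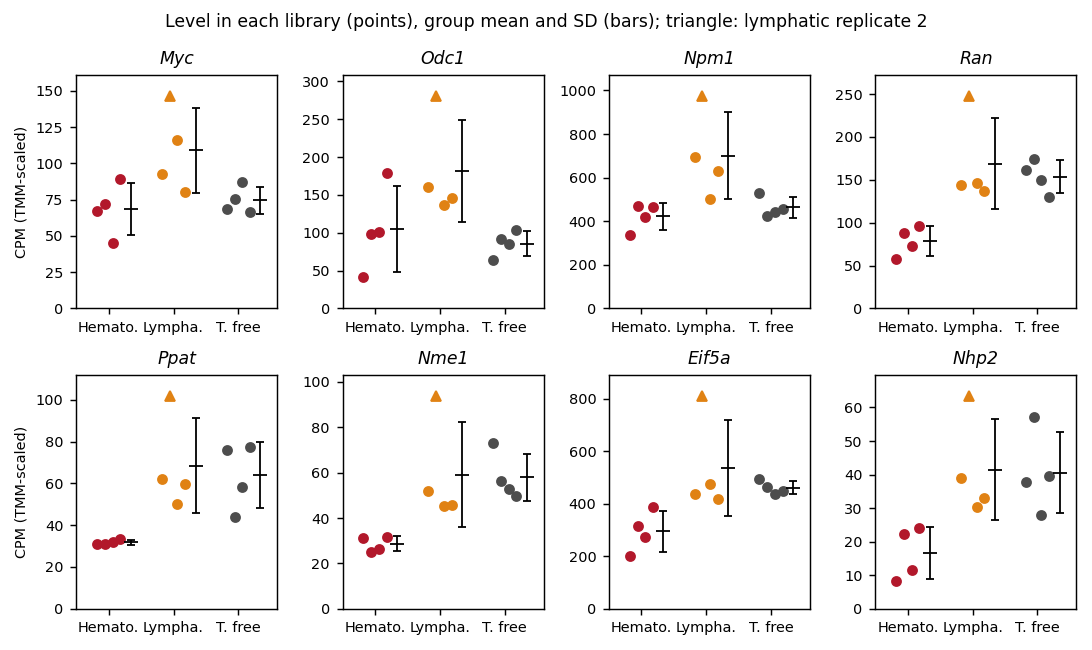
CPM (y axis, from 0) of 8 genes in each library (points) by group (x axis), with group mean and SD as bars and lymphatic replicate 2 as a triangle. In Ran, Ppat, Nme1, Eif5a and Nhp2 all 4 hematogenous points lie below both other groups, and the triangle is the highest point in each of the 8 panels.

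Lymphatic replicate 2 stood apart from its group in these genes. It was the highest of the 12 libraries in 36 of the 41 genes (87.8%), against 11.7% of tested genes, and the highest of its group in 40. The mean deviation of the 41 genes from their 12-library means, on the scale log2(CPM + 1), was 0.83 in this library, against −0.10 to 0.23 in the other lymphatic, −0.45 to −0.07 in the hematogenous and −0.05 to 0.12 in the tumor-free libraries. The summed level of 15 B cell and lymphoma markers was 278 CPM in lymphatic replicate 2, against 349 to 802 CPM in the other lymphatic libraries, and that of 14 NK markers was 19096 CPM, the highest of the 12. Without this library the genes called lower in hematogenous nodes were Ran (−0.86), Ppat (−0.86), Nme1 (−0.74), Eif4e (−0.78), Eif5a (−0.60) and Npm1 (−0.53), and these 6 were also called in each fit without another library. The other 10 calls were lost without it, at edgeR adjusted p from 0.0563 for Fbl to 0.201 for Nop2. Leaving out other libraries cost calls too: 7 genes were called without hematogenous replicate 3, 8 without hematogenous replicate 1, 9 without hematogenous replicate 2 and 10 without tumor-free replicate 1 or 4. Without lymphatic replicate 2 the values of 4 uncalled genes (Gnl3, Wdr43, Nop14 and Polr1b) were above 0.

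**Figure D4:**
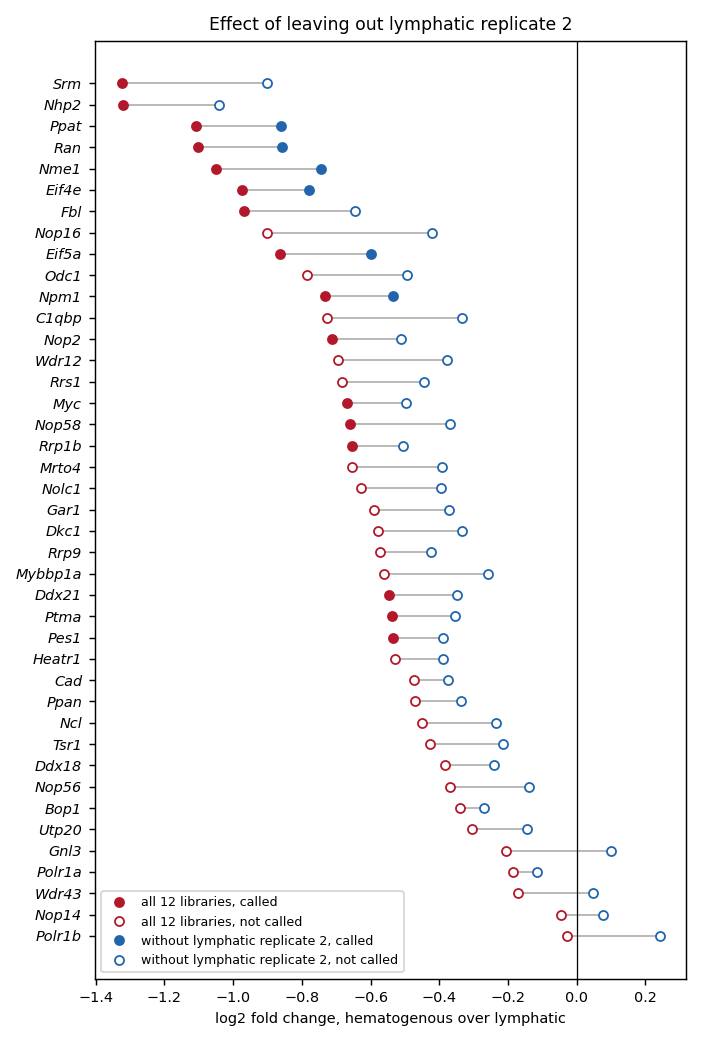
Log2 fold change of hematogenous over lymphatic (x axis) for the 41 genes (down the page) with all 12 libraries (red) and without lymphatic replicate 2 (blue), with filled points called at adjusted p under 0.05. Each blue point lies right of its red point, 16 red and 6 blue points are filled, and 4 blue points are above 0.

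Against tumor-free nodes 9 of the 41 genes fell in hematogenous nodes and none rose, where 6.87% of tested genes were called lower and 9.52% higher. The count was 4 with voom, 3 with the B cell markers as a covariate and 4 with tumor-free replicate 3 and hematogenous replicate 1 both left out. The median of the 41 genes was −0.33, against 0.08 for all tested genes, and 36 were below 0, as were 45.1% of tested genes. In 8 genes all hematogenous libraries lay below all tumor-free libraries, against 8.01% of tested genes. At an unadjusted p under 0.05 there were 16 genes, all lower, against 29.4% of tested genes in either direction. The called genes were those of nucleotide synthesis (Ppat, Nme1 and Cad), of snoRNPs (Nhp2, Fbl and Rrp9), and Ran, Eif5a and Srm. Of the 16 genes called lower against lymphatic nodes, 7 were also called lower here and 9 were not. Against tumor-free nodes those 9 ran from −0.54 for Rrp1b to −0.09 for Nop58, with Npm1 at −0.13. The hematogenous libraries are those of the comparison with lymphatic nodes, so the calls against tumor-free nodes are not independent of that comparison.

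Ran stood at 161, 174, 149.8 and 129.8 CPM in tumor-free libraries, all above its hematogenous values (−0.97 ± 0.187, edgeR adjusted p = 0.00184). Ppat stood at 76.0, 44.1, 58.1 and 77.3 CPM there (−1.01 ± 0.21, edgeR adjusted p = 0.00313), and Nme1 at 73.0, 56.5, 52.6 and 49.8 CPM (−1.02 ± 0.217, edgeR adjusted p = 0.00365). These 3 genes, whose groups did not overlap, were called in all 24 alternative fits of this comparison too. Nhp2 stood at 37.7, 57.3, 28.1 and 39.4 CPM in tumor-free libraries (−1.28 ± 0.313, edgeR adjusted p = 0.00869), and Eif5a at 496, 463, 437 and 449.8 CPM (−0.65 ± 0.193, edgeR adjusted p = 0.0269). Both were without overlap, and the call of Nhp2 held when any 1 library was left out. Cad stood at 69.3, 95.7, 58.7 and 91.1 CPM in the hematogenous libraries, against 104, 151, 155 and 97.4 CPM in tumor-free libraries, all of them higher (−0.69 ± 0.189, edgeR adjusted p = 0.017). Fbl stood at 94.6, 62.9, 82.6 and 95.0 CPM in tumor-free libraries (−0.70 ± 0.223, edgeR adjusted p = 0.0362), and it alone of the 9 overlapped between the groups. Srm stood at 21.3, 20.4, 27.7 and 30.1 CPM in tumor-free libraries (−0.999 ± 0.333, edgeR adjusted p = 0.0458), all above its hematogenous values. Rrp9 averaged 24.6 ± 4.78 CPM in hematogenous and 39.6 ± 8.50 CPM in tumor-free nodes, SD over 4 libraries each (−0.68 ± 0.232, edgeR adjusted p = 0.0491).

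The other 5 calls were lost without some libraries. That of Cad was lost without tumor-free replicate 2 or 3 or hematogenous replicate 3, and that of Eif5a without tumor-free replicate 1 or 2 or hematogenous replicate 1 or 3. The call of Fbl was lost without tumor-free replicate 1, 3 or 4 or hematogenous replicate 1, 2 or 3. That of Srm was lost without hematogenous replicate 2 or 3, lymphatic replicate 3 or tumor-free replicate 1, 3 or 4, and that of Rrp9 without any 1 of 9 libraries, all but tumor-free 3 and lymphatic 2 and 4. Without hematogenous replicate 3, 4 of the 41 genes were called.

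In lymphatic against tumor-free nodes edgeR called none of the 41 genes, where 2.74% of tested genes were called, 2.32% higher and 0.418% lower. At an unadjusted p under 0.05 there were 7 genes, all higher, against 13.7% of tested genes in either direction, and DESeq2 and limma's voom each called Npm1 alone. The median was 0.24, against 0.08 for all tested genes, and 35 of the 41 were above 0, as were 58.3% of tested genes. Without lymphatic replicate 2 the edgeR median was −0.03 and 18 were above 0. With voom on all 12 libraries the median of the 41 was 0.07, below the 0.14 of all tested genes, and 27 were above 0. Npm1 stood at 531, 422, 444 and 455 CPM in tumor-free libraries and overlapped its lymphatic values (0.60 ± 0.164, edgeR adjusted p = 0.056). Nop58 stood at 110.2, 204, 109.7 and 100.3 CPM in lymphatic libraries, against 89.4, 79.0, 92.3 and 93.0 CPM in tumor-free nodes (0.57 ± 0.177, edgeR adjusted p = 0.104). Odc1 stood at 160.4, 281, 137 and 146 CPM in lymphatic libraries, against 63.6, 91.7, 84.9 and 103 CPM in tumor-free nodes (1.08 ± 0.356, edgeR adjusted p = 0.163). In Ncl the values were 896, 1428, 857 and 841 CPM in lymphatic libraries, against 777, 738, 720.2 and 732 CPM in tumor-free nodes (0.44 ± 0.157, edgeR adjusted p = 0.175). In Nop58, Odc1, Ncl and Gar1 all lymphatic libraries lay above all tumor-free libraries, 4 of 41 genes against 7.66% of tested genes. Odc1 was called in a fit of the compared groups alone and without hematogenous replicate 1 or 4, and Npm1 without lymphatic replicate 3.

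Per kb of exon, Ptma had the highest mean of the 41 genes in each group, at 330.2 CPM per kb in hematogenous, 479.6 in lymphatic and 419 in tumor-free nodes. Npm1 stood at 158, 263 and 174 CPM per kb in the same order and Eif5a at 124, 226 and 194. Wdr12 had the lowest mean in each group, at 1.32, 2.13 and 1.67 CPM per kb. Lengths cover all annotated exons of a gene, which lowers the value of genes with many transcript forms.

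Other genes of the pathway were read from lists. Of 93 other ribosome assembly factors 4 fell and none rose in hematogenous against lymphatic nodes (median −0.29), which at 4.30% is below the 5.92% of tested genes called lower. Against tumor-free nodes 10 fell, 10.8% against 6.87% of tested genes, and 2 rose, 2.15% against 9.52% (median −0.17). Nol12, the gene of a nucleolar RNA-binding protein, fell against lymphatic (−1.20 ± 0.251, edgeR adjusted p = 0.00605) and tumor-free nodes (−1.31 ± 0.253, edgeR adjusted p = 0.00183). The helicase gene Ddx24 (−0.67 ± 0.153) and Nifk, which encodes a nucleolar partner of Ki-67 (−0.82 ± 0.194), fell against lymphatic nodes. The helicase gene Ddx54 (−0.87 ± 0.185) and the assembly factor gene Rrp7a (−0.69 ± 0.156) fell against tumor-free nodes, where Mdn1 (0.55 ± 0.15) and Nmd3 (0.70 ± 0.211), which act in maturation and export of the large subunit, rose. In lymphatic against tumor-free nodes 1 of the 93 rose (1.08%, against 2.32% of tested genes), Ddx24 (0.81 ± 0.154, edgeR adjusted p = 0.00456), and none fell.

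Of 10 tested genes of RNA polymerase I and its factors, 2 fell in hematogenous against lymphatic nodes (20%, against 5.92% of tested genes). They were Polr1d (−0.77 ± 0.168) and Polr1c (−0.66 ± 0.161), subunits shared with RNA polymerase III. Against tumor-free nodes Polr1d fell (−0.52 ± 0.169) and Taf1d, which encodes a subunit of a promoter selectivity factor, rose (0.48 ± 0.164). Each is 10% of the 10, where 6.87% of tested genes were called lower and 9.52% higher. Of 17 purine and pyrimidine synthesis genes, Umps (−1.07 ± 0.236) and Paics fell in hematogenous against lymphatic nodes and Adsl (−0.89 ± 0.204) against tumor-free nodes. These are 11.8% of the 17, where 5.92% of tested genes were called lower, and 5.88%, where 6.87% were. None of these genes was called by edgeR in lymphatic against tumor-free nodes. Of 35 other MYC targets 19 fell in hematogenous against lymphatic nodes (54.3%, against 5.92% of tested genes, median −0.72) and 5 against tumor-free nodes (14.3%, against 6.87%, median −0.39), and none rose in either. Ldha, the lactate dehydrogenase gene, averaged 208 ± 51.8 CPM in hematogenous and 476 ± 108 CPM in lymphatic nodes, SD over 4 libraries each (−1.19 ± 0.168, edgeR adjusted p = 0.000376). The replication clamp gene Pcna (−1.15 ± 0.204) and the chaperonin gene Cct5 (−0.91 ± 0.163) fell in the same comparison. Against tumor-free nodes Ldha (−0.75 ± 0.167) and the cyclin gene Ccnd2 (−0.59 ± 0.156) fell. In lymphatic against tumor-free nodes 1 of the 35 rose (2.86%, against 2.32% of tested genes), Hnrnpa1 (0.48 ± 0.121), a splicing factor gene.

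Of 16 tested partners and rivals of MYC, 2 rose (12.5%, against 2.93% of tested genes) and none fell in hematogenous against lymphatic nodes. Against tumor-free nodes 5 rose (31.2%, against 9.52%) and 1 fell (6.25%, against 6.87%). The gene that fell was Mlx (−0.70 ± 0.182, edgeR adjusted p = 0.013). Mlxip, which encodes the glucose-responsive factor MondoA, averaged 543 ± 88.4 CPM in hematogenous, 319 ± 54.1 CPM in lymphatic and 224 ± 30.2 CPM in tumor-free nodes (SD, n = 4 each). It rose in hematogenous against lymphatic (0.77 ± 0.143, edgeR adjusted p = 0.00284) and tumor-free nodes (1.28 ± 0.145, edgeR adjusted p = 4.08e-05). Mga, the gene of a MAX-binding repressor, rose in both comparisons as well, at 0.43 ± 0.122 and 0.73 ± 0.123. The ubiquitin ligase gene Huwe1 rose against tumor-free nodes (0.64 ± 0.148). In lymphatic against tumor-free nodes 1 of the 16 rose (6.25%, against 2.32% of tested genes), Mxd1 (0.59 ± 0.142, edgeR adjusted p = 0.0283), which encodes a MAX partner that opposes MYC. Mxd1 was also among the 5 that rose in hematogenous against tumor-free nodes (0.43 ± 0.142, edgeR adjusted p = 0.043).

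Markers of cell types moved with the groups. Of 14 NK markers 9 fell in hematogenous against lymphatic nodes (64.3%, against 5.92% of tested genes, median −0.66). Against tumor-free nodes 10 of them fell (71.4%, against 6.87%, median −0.64), and none rose in either comparison. The sum of the 14 was 10217 to 12452 CPM in hematogenous, 14704 to 19096 CPM in lymphatic and 15942 to 18296 CPM in tumor-free libraries. Of 11 T cell markers 2 rose in hematogenous against lymphatic nodes (18.2%, against 2.93% of tested genes). Against tumor-free nodes 4 of them rose (36.4%, against 9.52%). Sums of the 11 were 627 to 822 CPM in hematogenous, 437 to 659 CPM in lymphatic and 407 to 602 CPM in tumor-free libraries. Of 14 tested myeloid markers 2 rose (14.3%, against 2.93% of tested genes) and 1 fell (7.14%, against 5.92%) in hematogenous against lymphatic nodes. Against tumor-free nodes 7 of them rose (50%, against 9.52%). Means of these 7 ran from 1.06 CPM (Cd14) to 19.7 CPM (Csf1r) in hematogenous and from 0 to 6.01 CPM in tumor-free nodes. The 2 that rose against lymphatic nodes, S100a8 and S100a9, averaged 0.19 and 0.209 CPM there. A gene near 0 in 1 group could hardly be called in the other direction, so these shares are not like those of all tested genes. The sums of all 15 were 850 to 1249 CPM in hematogenous, 1363 to 1710 CPM in lymphatic and 1027 to 1190 CPM in tumor-free libraries, with Cd14 at 0 in the tumor-free group. Itgax, which NK cells also express, made up most of these sums, at 700.2 ± 202 CPM in hematogenous and 1207 ± 177 CPM in lymphatic nodes (SD, n = 4 each), and was the marker that fell. None of 15 B cell and lymphoma markers was called by edgeR in hematogenous against lymphatic nodes. Against tumor-free nodes 1 of them, Pax5, rose (6.67%, against 9.52% of tested genes). Sums of the 15 were 282 to 489 CPM in hematogenous, 278 to 802 CPM in lymphatic and 124 to 346 CPM in tumor-free libraries. With this B cell list as a covariate 18 of the 41 genes were lower in hematogenous than in lymphatic and 3 than in tumor-free nodes. Of 5 tested red cell and platelet markers none was called by edgeR in hematogenous against lymphatic nodes, and Hba-a2 and Hbb-bt rose in hematogenous against tumor-free nodes, at means of 1.84 and 8.65 CPM in hematogenous and 0 and 0.216 CPM in tumor-free nodes. Sums of 10 stroma and endothelium markers were 118 to 139 CPM in hematogenous, 162 to 175 CPM in lymphatic and 113 to 129 CPM in tumor-free libraries. At 0 were Ccl19, Cxcl13 and Lyve1 in the hematogenous group, Pdpn in the lymphatic group and Ccl19 in the tumor-free group. Of these 10 genes 3 were tested, and nearly all of the sum was Pecam1, at 125 ± 11.1 CPM in hematogenous, 168 ± 6.22 CPM in lymphatic and 116 ± 5.99 CPM in tumor-free nodes (SD, n = 4 each), which fell in hematogenous against lymphatic nodes (−0.43 ± 0.11, edgeR adjusted p = 0.0189). In lymphatic against tumor-free nodes Pax5 (1.44 ± 0.361), Cd68 (means of 12.8 CPM in lymphatic and 4.20 CPM in tumor-free nodes), Pecam1 (0.54 ± 0.11) and Hba-a2, at a mean of 2.93 CPM against 0, rose, and Klrb1c (−0.54 ± 0.137) and Lat (−0.69 ± 0.137) fell. All 15 B cell and lymphoma markers were above 0 in that comparison, with a median of 1.06. The part of the NK, T cell, myeloid, red cell and stroma lists in the results was not tested. In bulk RNA, fewer cells of a type and less RNA per cell cannot be told apart.

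Exon length moved with the fold changes too. Across genes, which are not independent replicates and share libraries, Spearman's rho between exon length and log2 fold change was 0.39 over the 41 genes and 0.18 over 15661 tested genes in hematogenous against lymphatic nodes, and 0.28 and 0.17 against tumor-free nodes. The 20 shorter of the 41 genes had a median of −0.70 against lymphatic nodes with 10 called, and the 21 longer ones a median of −0.53 with 6 called. With each library's trend on length removed, 14 of the 41 genes were lower in hematogenous than in lymphatic nodes and 10 than in tumor-free nodes.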

How the data were processed

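Poly(A) RNA of NK cells sorted from lymph nodes was read as stranded, single-end reads of 120 bp, per the labels' protocols. The authors deposited unnormalized read counts for each gene. The submitters' processing notes name FastQC 0.11.9, Trimmomatic 0.39, HISAT2 2.1.0, HTSeq 2.0.2 and GRCm39. The annotation and the strand option are not stated in the sources at hand. The 5 summary lines of each file were left out of library sizes. They included reads outside features (11.4% to 24.6% of a library) and ambiguous reads (1.55% to 2.12%).

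Groups and replicate numbers come from the sample titles. Symbols and exon lengths came from GENCODE M21 (91.8% of gene IDs, 99.5% of counts), an older build. Of the genes listed, 2 were matched by a RefSeq synonym and 3 had no match. In that annotation exons of 7 of the 41 genes overlap a gene on the same strand, mostly small RNAs, and exons of 16 overlap a gene on the opposite strand, so reads could be shared.

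Differences were tested with edgeR 4.0.16 under R 4.3.3: quasi-likelihood F test, robust, TMM scaling, default filter by group, a model of group alone over 12 libraries, 9 residual degrees of freedom, and Benjamini-Hochberg adjustment over 16016 genes. The biological coefficient of variation was 0.429. The SE is the size of the log2 fold change divided by the root of F. The code was tested on simulated data.

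The members, lists and tests were chosen with earlier results of these data known. Values in every library are given for Myc and, in each comparison, for the 8 called members with the smallest adjusted p, or for the 4 members with the smallest p where fewer than 4 were called. From each list up to 3 called genes are named per comparison. Of the red cell and platelet markers 1 item is not reported here. Srm against lymphatic nodes, Mdn1, Nmd3, Mlx, Mxd1 in hematogenous against tumor-free nodes and the cell type markers named were added after their values were seen.

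Alternatives were other scalings (DESeq2 1.42.0 size factors, upper quartile, library size alone), no filter, the DESeq2 test, voom with quality weights (limma 3.58.1), the compared groups alone, a replicate block, the B cell list as a covariate, equal depth and leaving out each library. Removing the length trend, and removing 2 libraries together, were chosen after seeing the data.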

Additional observations from a re-analysis of the deposited data

Results flagged for a closer look

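In 123 sets of 4 libraries (41 genes in 3 groups), 6 held a library whose gap to its nearest neighbour, divided by the range, exceeded Dixon's 95% critical value of 0.829. Chance alone gives this in about 1 in 20 sets. In 5 of the 6 the library was lymphatic replicate 2. It stood at 1428 CPM for Ncl against 841 to 896 CPM in the other lymphatic libraries, at 204 CPM for Nop58 against 100.3 to 110.2 CPM, and at 164 CPM for Wdr43 against 98.4 to 100.5 CPM. It stood at 248 CPM for Ran against 137 to 146 CPM, and at 957 CPM for Ptma against 599.9 to 631 CPM. In the other set, tumor-free replicate 4 stood at 53.3 CPM for Bop1, against 77.6 to 82.1 CPM in the other tumor-free libraries.

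The difference from tumor-free nodes differed between the hematogenous and the lymphatic model in 16 of the 41 genes (39.0%), by the edgeR test of hematogenous against lymphatic nodes. These are the same 16 calls as in that comparison, not a further result. Of all tested genes 5.92% were called lower and 2.93% higher in it.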

How the results depend on the processing

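Genes called numbered 439 in lymphatic against tumor free, 2625 in hematogenous against tumor free and 1417 in hematogenous against lymphatic, and members called 0, 9 and 16. In lymphatic against tumor free, DESeq2 called 729 genes and 1 member, the B cell covariate 131 genes, and removal of tumor-free replicate 3 with hematogenous replicate 1 gave 843 genes and 1 member. Members called there were 3 without the filter, 1 with voom and 1 in the compared groups alone. Leaving out each library gave 255 (without lymphatic replicate 4) to 634 genes, 0 to 1 members, and a median of −0.03 (−0.026 without lymphatic replicate 2) to 0.33.

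In hematogenous against tumor free, the B cell covariate left 831 genes and 3 members, voom 4 members and removal of the 2 libraries 4 members. Leaving out each library gave 1760 to 3202 genes, 4 to 12 members and a median of −0.38 to −0.26.

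In hematogenous against lymphatic, voom called 2923 genes, and removal of the 2 libraries left 710 genes and 4 members. Members numbered 10 with DESeq2 size factors, 10 with upper quartile scaling and 9 with library size alone. Leaving out each library gave 620 (without hematogenous replicate 3 or lymphatic replicate 2) to 1572 genes, with 811 without hematogenous replicate 1, 6 to 20 members and a median of −0.73 to −0.38. The cause of these shifts was not tested.

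Scaling moved the split of higher and lower genes in hematogenous against lymphatic: 469 and 948 with TMM, 624 and 693 with DESeq2 size factors, 680 and 619 with upper quartile, 744 and 590 with library size alone. The last moved the median of all genes to 0.10, and relative to it the members stood at −0.58, against −0.59 with TMM. In lymphatic against tumor free the split was 372 and 67 with TMM, 295 and 108 with library size alone and 290 and 150 with the length trend removed, which gave 947 and 1451 in hematogenous against tumor free, against 1525 and 1100. No called member changed direction in any alternative.

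Same-numbered libraries did not deviate together (correlations −0.07 to 0.06), so the numbers are read as names. With the replicate block 362, 2518 and 1439 genes and 0, 7 and 15 members were called, in the order above. At an equal depth of 6654215 counts, 386, 2574 and 1390 genes and 0, 9 and 12 members were called in that order.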
